A study of Homo sapiens with 40 samples.

Results

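Talazoparib was given to SETD2 KO 786-0 cells. Their 2 libraries of day 5 were compared with the 2 libraries of untreated SETD2 KO cells of day 0. These 4 of the 40 libraries of the series were chosen by their labels alone, with no measured value. All are RNA-seq of 786-0, an established cell line from a clear cell renal cell carcinoma. The KO BMN group carries the SETD2 knockout and received talazoparib, labelled BMN, at 10 nM, with day 5 as its labelled day. Its KO control group carries the same knockout with no drug at day 0. The labels give the dose and the day and not how long the drug was present. A further 6 groups of 2 libraries were set beside them, 16 libraries in all. They were SETD2 WT cells with 10 nM BMN at day 5 and untreated SETD2 WT cells of day 0, KO cells with 100 nM DAC (decitabine, which blocks DNA methylation) and 10 nM BMN at day 5 and KO cells with 100 nM DAC alone at day 5, and KO cells with 10 nM BMN at day 16 and day 26. The labels name 1 KO and 1 WT line. They do not say how the knockout was made, how many clones it comprises or whether the 2 replicates were separate cultures. The p-values therefore reflect only the spread between libraries of a group, estimated from all 40 libraries together. Untreated day 5 libraries were not analysed here, so the drug and 5 days in culture cannot be told apart in the comparison with day 0.

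Talazoparib blocks PARP1 and PARP2, enzymes that bind DNA breaks and build chains of ADP-ribose there, and it also holds both enzymes on the DNA. Replication forks that meet held enzymes can stall or break, and repair then draws on homologous recombination. SETD2 writes trimethylation of lysine 36 on histone H3, a mark over transcribed gene bodies that takes part in recruiting recombination factors. In clear cell carcinoma lines that lack VHL, such as 786-0, the hypoxia factor subunit encoded by EPAS1 stays active in normal oxygen.

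The 4 libraries held 18818025 to 19613332 counts in genes, within the 17833960 to 22631101 counts of all 40. Levels are given as CPM, counts relative to the library total, after TMM scaling, and the threshold for a call was an adjusted p (Benjamini-Hochberg) of 0.05 in edgeR's quasi-likelihood test, fitted to 22527 genes in all 40 libraries. Errors are SE of the log2 fold change, with 2 libraries in each group. Of 16 blood and endothelial markers, 10 were at 0 in all 4 libraries and the list summed to 18 and 28 counts in KO BMN libraries against 27 and 27 in KO control libraries; none of the 7 tested passed. Fibroblast markers (10 listed, with DCN, FAP and PDPN, 3 in all, at 0) summed to 420 and 460 counts in KO BMN libraries and to 439 and 430 in KO control libraries. Of the 8 tested ACTA2 fell, but its call was lost in 7 of 10 alternative fits, among them the offsets described below. The renal carcinoma markers summed to 111779 and 113477 counts in KO BMN libraries and to 123424 and 127547 in KO control libraries, with CA9 at 0 in all 4. The 2 KO control libraries differed from each other more than the 2 KO BMN libraries did, with an SD of the log2 difference over expressed genes of 0.151 in KO BMN and 0.213 in KO control.

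The mRNA of the gene knocked out and those of the 2 drug targets were first read in every library. SETD2 was at 121 and 124 CPM in KO BMN libraries and at 141 and 113 CPM in KO control libraries (log2 fold change -0.05 ± 0.07, SE; adjusted p = 0.75). In WT cells SETD2 was at 133 and 134 CPM with BMN and at 149 and 130 CPM untreated, so the level of the transcript did not set the lines apart and the labels could not be checked with it. PARP1 was at 334 and 333 CPM in KO BMN libraries against 417 and 348 CPM in KO control libraries, and PARP2 at 24.2 and 25.9 CPM against 33.4 and 29 CPM. Both were lower in each KO BMN library than in either control, by -0.20 ± 0.07 for PARP1 (adjusted p = 0.056) and -0.32 ± 0.11 for PARP2 (adjusted p = 0.051), and neither passed in the fit of 40 libraries. Both passed with RLE scaling (adjusted p = 0.0498 and 0.046), with DESeq2 (0.032 and 0.031) and without KO control replicate 2 (0.0054 and 0.043). PARP1 also passed with the replicate number as a block (0.046), and PARP2 with the offsets described below (0.028).

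In KO cells at day 5 of BMN, 1142 genes were higher than in KO control (5.07% of those tested) and 1497 were lower (6.65%). Changes were mostly modest: 188 of the higher and 169 of the lower genes moved by 2-fold or more. NDRG1, ALDH1A1, VEGFA and 35 of 51 replication-dependent histone genes were lower, while CDKN1A, MDM2, IL6, THBS1 and F3 were higher. The count of calls rests on all 4 libraries: it was 779 without KO BMN replicate 1, 1289 without KO BMN replicate 2, 1134 without KO control replicate 1 and 1606 without KO control replicate 2. Called the same way in each of those 4 fits were 169 of the higher and 360 of the lower genes.

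**Figure D1:**
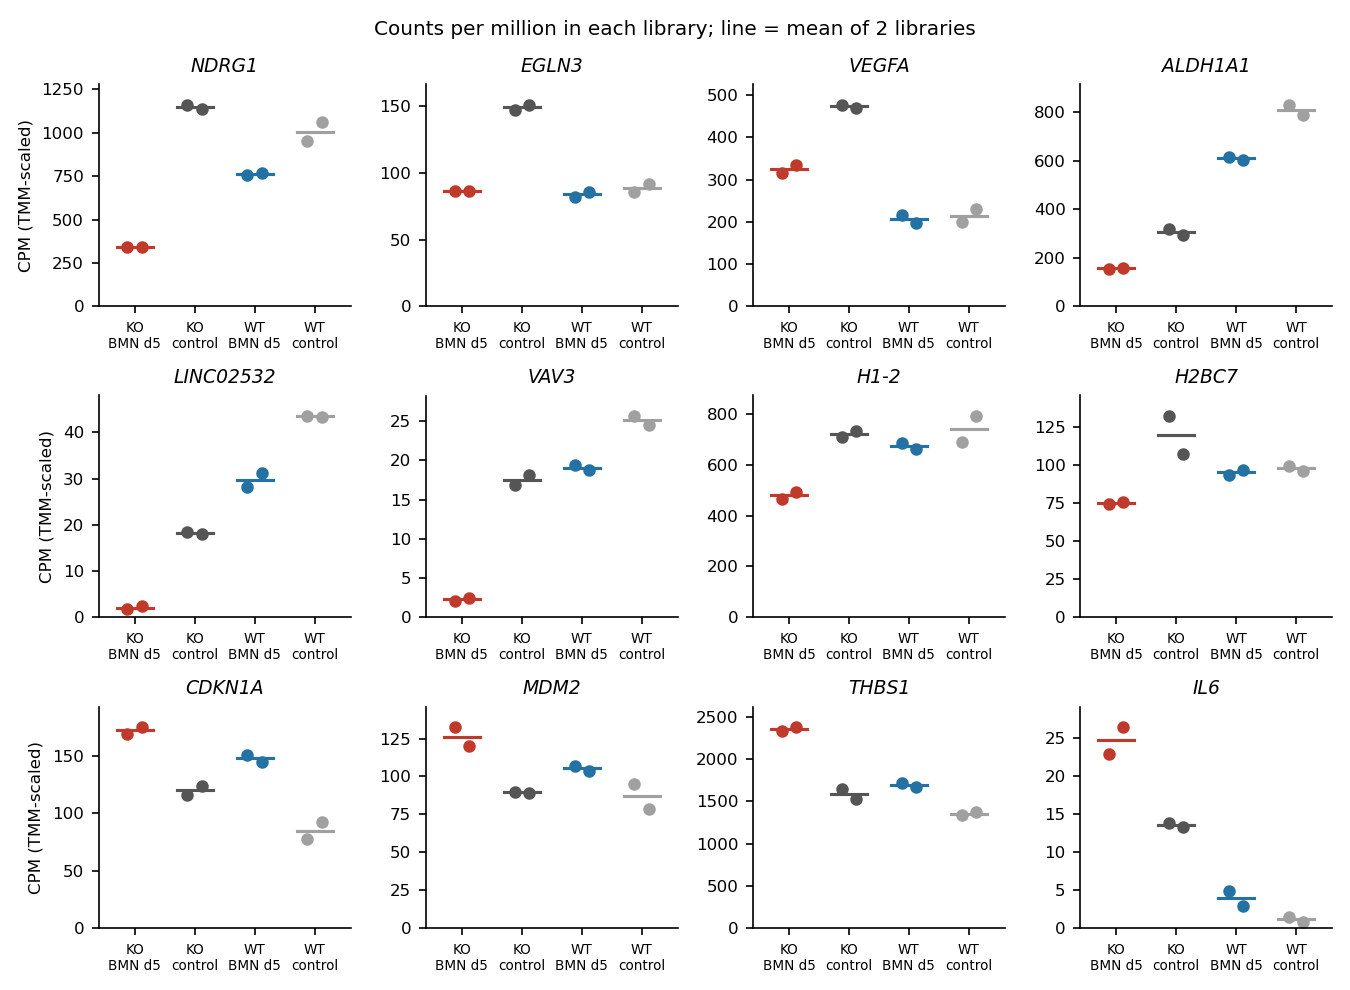
CPM (linear axis from 0) in each library for 12 genes, with a point per library and a line at the mean of 2, for KO BMN day 5, KO control, WT BMN day 5 and WT control. NDRG1, EGLN3, VEGFA and H1-2 are lower in both KO BMN libraries than in both KO controls, and CDKN1A, THBS1 and IL6 are higher with BMN in both lines.

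Fold changes also followed the base composition of the transcripts, and this bears on every list below. Across 12016 expressed genes, which are not independent replicates, the log2 fold change of KO BMN over KO control had a Spearman correlation of -0.52 with the GC content of the transcript. With genes put into 5 classes of equal size by GC content, those in the lowest (30.2% to 40.8%) had a median log2 fold change of 0.21 with 526 higher and 58 lower, and those in the highest a median of -0.17 with 31 higher and 392 lower. Offsets fitted to GC content and length in each library brought the correlation to 0.004 and gave 1541 higher genes (6.84%) and 1558 lower genes (6.92%). Of the calls without offsets, 844 of 1142 rises (73.9%) and 1133 of 1497 falls (75.7%) were also made with offsets, and 0 were made in opposite directions. The same correlation was 0.012 for BMN over control in WT cells and -0.28 for BMN with DAC over DAC in KO cells. The WT value rests on the mean of 2 control libraries that differed strongly from each other along GC content, so it does not show that WT libraries lack such a trend. Libraries of the same group also differed along GC content. Deviations of replicates 1 and 2 from their group mean had correlations with it of -0.23 and 0.23 in KO BMN and in KO control. These were -0.76 and 0.76 in WT control, 0.084 and -0.084 in WT BMN and 0.55 and -0.55 in KO DAC at day 5. With 2 libraries the signs are opposite by construction. Whether the GC trend belongs to the cells or to the libraries was not tested, and counts of calls with offsets are given with the lists.

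**Figure D2:**
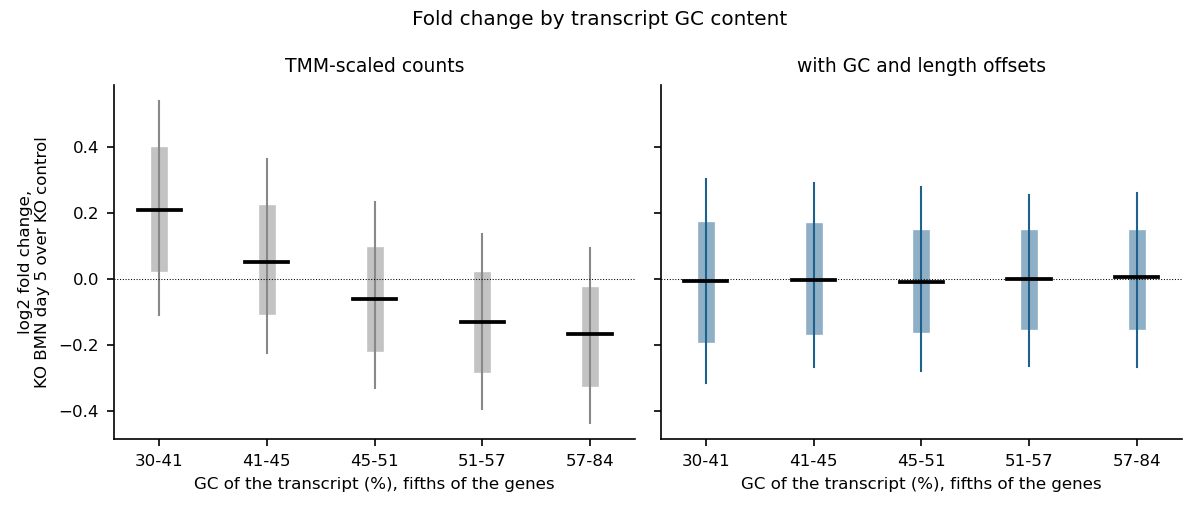
Log2 fold change of KO BMN day 5 over KO control by transcript GC content (percent, 5 classes of equal size), as counted (left) and with GC and length offsets (right); the thick bar spans the quartiles, the thin line the 10th to 90th percentiles and the black line the median. The median runs from 0.21 in the lowest class to -0.17 in the highest on the left and lies near 0 in every class on the right.

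Hypoxia-inducible genes were lower as a group in KO cells on BMN. Of 30 measured, 16 fell and 0 rose, with a median log2 fold change of -0.23 against -0.004 over all genes tested. With offsets 16 fell, 1 rose and the median was -0.22. NDRG1, a stress-responsive gene that hypoxia and differentiation induce, was at 344 and 343 CPM in KO BMN libraries and at 1162 and 1137 CPM in KO control libraries. The groups were far apart relative to their spread, with a log2 fold change of -1.74 ± 0.07 (adjusted p = 3.1e-19). EGLN3, a prolyl hydroxylase that marks hypoxia factors for degradation (chr14:33924227-34462774 in GRCh38), was at 86.7 and 86.6 CPM in KO BMN libraries against 147 and 151 CPM in KO control libraries (-0.78 ± 0.07; adjusted p = 1.8e-09).

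Several growth factor and glucose genes on the same list fell. VEGFA, the main angiogenic growth factor of this tumour type, was at 316 and 334 CPM in KO BMN libraries and at 477 and 470 CPM in KO control libraries (-0.54 ± 0.07; adjusted p = 3.3e-06). The glucose transporter SLC2A1 was at 902 and 915 CPM in KO BMN libraries and at 1243 and 1299 CPM in KO control libraries (-0.48 ± 0.08; adjusted p = 0.00016). EPAS1 itself stood at 158 and 160 CPM in KO BMN libraries and at 228 and 214 CPM in KO control libraries (-0.48 ± 0.06; adjusted p = 4.6e-06). CA12, a carbonic anhydrase of the cell surface, fell by 0.42 and the vasodilator peptide gene ADM by 0.53 on the log2 scale. Among glycolytic enzymes ENO2 fell by 0.47, and HK2 and LDHA fell by less, by 0.34 and 0.17. The call for HK2 was lost in 1 of 10 alternatives. PGK1 was at 466 and 461 CPM in KO BMN libraries and 468 and 457 CPM in KO control libraries, with overlapping groups. The fall of LDHA was lost in 4 of 10 alternatives, 3 of them with 1 library left out, and the kinase PDK1, at 36.2 and 29.7 CPM in KO BMN libraries and 33.4 and 31.6 CPM in KO control libraries, did not pass. NDRG1, EGLN3, VEGFA, EPAS1, SLC2A1, SLC2A3, CA12, ADM and ENO2 also passed with each library left out, and CCND1 and BNIP3 did not pass with offsets.

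Upstream bases of 3 of these glycolytic genes show the core letters at which hypoxia factors bind, ACGTG, in capitals on either strand (CACGT on the other). They are the 150 bases before the start of the gene, 5′ to 3′, from RefSeq (GRCh38.p14): LDHA at chr11:18394413-18394562 (+ strand), ENO2 at chr12:6914430-6914579 (+ strand) and HK2 at chr2:74833977-74834126 (+ strand).
LDHA: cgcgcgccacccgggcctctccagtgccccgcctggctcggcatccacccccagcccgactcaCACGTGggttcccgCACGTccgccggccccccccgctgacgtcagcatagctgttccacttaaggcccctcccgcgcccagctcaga
ENO2: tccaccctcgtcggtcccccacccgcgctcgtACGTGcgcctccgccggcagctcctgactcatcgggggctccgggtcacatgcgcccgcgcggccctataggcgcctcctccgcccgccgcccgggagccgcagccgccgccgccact
HK2: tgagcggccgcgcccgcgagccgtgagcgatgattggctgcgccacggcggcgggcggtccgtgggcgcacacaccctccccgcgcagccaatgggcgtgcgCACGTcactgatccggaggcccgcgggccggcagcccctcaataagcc
ACGTG on either strand was in the 250 bases before the start of 13 of the 24 listed genes with an entry, and of 6 of the 12 that fell, against 18.5% of all 27305 genes in the RefSeq table. A match is a description of the letters in this window and not a binding site.

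Renal epithelial genes were lower too. Of 20 measured, 8 fell and 0 rose, with a median of -0.43 (8 fell and 0 rose with offsets, median -0.35). ALDH1A1, a retinaldehyde dehydrogenase (chr9:72900671-73080442), was at 155 and 157 CPM in KO BMN libraries and at 320 and 293 CPM in KO control libraries (-0.97 ± 0.06; adjusted p = 3.7e-14). The kidney developmental factor PAX2 fell by 0.54 on the log2 scale, and the kidney injury receptor HAVCR1 fell by 0.44. CDH6, a cadherin of the proximal tubule, was at 154 and 160 CPM in KO BMN libraries and at 236 and 209 CPM in KO control libraries (-0.50 ± 0.07; adjusted p = 1.7e-05). CDH16, the kidney-specific cadherin, was low throughout, at 1.51 and 1.98 CPM in KO BMN libraries and at 4.48 and 4.57 CPM in KO control libraries. Of the 14 markers of clear cell renal carcinoma lines, PAX2, VEGFA, CDH6, EPAS1, CA12 and NNMT fell and 0 rose (6 and 0 with offsets), and PAX8, the lineage factor of these tumours, did not pass. All of these falls except that of NNMT were already described above with the hypoxia or renal genes, so they are not a separate result.

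Replication-dependent histone genes, transcribed in S phase to package new DNA, were the list with the largest share of falls. Of 51 measured, 35 fell and 0 rose, with a median of -0.39, and 48 of the 51 had a log2 fold change below 0. With offsets 36 fell and 0 rose (median -0.33), and 20 fell with each library left out as well as with offsets. The listed genes together made 5754 and 5838 CPM in KO BMN libraries and 7736 and 8025 CPM in KO control libraries. In bulk RNA, fewer cells in S phase and less histone RNA in each cell cannot be told apart.

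H1-2, a linker histone (chr6:26055740-26056470), was at 466 and 493 CPM in KO BMN libraries and at 711 and 732 CPM in KO control libraries (-0.59 ± 0.06; adjusted p = 2.6e-08). Among the H2B genes, H2BC5 was at 166 and 167 CPM in KO BMN libraries and at 254 and 244 CPM in KO control libraries (-0.58 ± 0.06; adjusted p = 1.1e-07). H2BC7 was at 74.3 and 75.9 CPM in KO BMN libraries and at 133 and 108 CPM in KO control libraries (-0.68 ± 0.09; adjusted p = 2.1e-06). Both KO BMN libraries were below both controls for each of these genes, and for H2BC21 (-0.45 ± 0.06) and the H2A gene H2AC11 (-0.55 ± 0.08) too. H2AC17 and H4C9, at 0.26 and 0.90 on the log2 scale, were the 2 listed genes above 0, both at or below 1.25 CPM in all 4 libraries, and did not pass. Histone genes are near-identical copies of each other, and reads that map to several were not counted, so the level of any 1 copy is uncertain.

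Upstream bases of 4 of these genes are shown because histone promoters are known for CCAAT boxes, here in capitals as CCAAT or, on the other strand, ATTGG. They are the 150 bases before the start, 5′ to 3′ on the strand of the gene, from RefSeq (GRCh38.p14): H1-2 at chr6:26056471-26056620 (- strand), H2BC5 at chr6:26157971-26158120, H2BC7 at chr6:26199366-26199515 and H2AC11 at chr6:27132893-27133042 (+ strand).
H1-2: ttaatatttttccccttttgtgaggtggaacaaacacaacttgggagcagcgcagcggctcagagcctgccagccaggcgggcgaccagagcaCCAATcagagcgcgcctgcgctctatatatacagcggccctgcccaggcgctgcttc
H2BC5: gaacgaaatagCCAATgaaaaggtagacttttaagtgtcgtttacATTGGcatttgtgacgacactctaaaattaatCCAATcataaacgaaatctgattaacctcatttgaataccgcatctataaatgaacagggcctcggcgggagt
H2BC7: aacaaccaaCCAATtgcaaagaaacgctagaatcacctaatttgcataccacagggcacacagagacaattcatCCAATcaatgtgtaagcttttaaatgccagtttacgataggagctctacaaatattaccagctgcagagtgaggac
H2AC11: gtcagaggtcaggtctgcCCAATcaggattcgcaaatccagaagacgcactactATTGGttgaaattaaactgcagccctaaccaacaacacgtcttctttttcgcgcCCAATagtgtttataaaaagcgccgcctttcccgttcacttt
CCAAT on either strand was in the 250 bases before the start of 39 of the 46 measured histone genes with an entry and of 28 of the 32 that fell, against 32.9% of all genes in the table.

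Genes of DNA replication fell in smaller number. Of 43 measured, 10 fell and 1 rose, with a median of -0.12 (10 fell and 1 rose with offsets, median -0.06). MCM5, a subunit of the replicative helicase, was at 138 and 142 CPM in KO BMN libraries and at 184 and 192 CPM in KO control libraries (-0.43 ± 0.08; adjusted p = 0.00075). MCM6, of the same helicase, was at 131 and 137 CPM in KO BMN libraries and at 167 and 159 CPM in KO control libraries (-0.29 ± 0.06; adjusted p = 0.0011). These 2 passed with each library left out; the S-phase repressor E2F8 (-0.52 ± 0.11) and the chromatin assembly factor CHAF1B (-0.37 ± 0.08) did not in every case. The riser was DSCC1, which helps load the replication clamp, and the clamp gene PCNA itself was at 139 and 136 CPM in KO BMN libraries and 145 and 138 CPM in KO control libraries. Mitotic genes were split, with 5 of 40 higher and 5 lower and a median of -0.004 (5 and 5 with offsets). CENPE, a kinetochore motor, and ASPM, a spindle pole protein, rose by 0.80 and 0.64. These 2 calls were lost in 2 and 4 of 10 alternatives, with values down to 0.47 and 0.35. CDC25C, the phosphatase that starts mitosis, was lower (-0.57 ± 0.10, adjusted p = 0.00022). It was at 25.2 and 26.7 CPM in KO BMN libraries against 41.5 and 35.3 CPM in KO control libraries.

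Targets of p53, the factor that answers DNA damage with arrest or death, were higher on balance. Of 35 measured, 15 rose and 1 fell, with a median of 0.32 (18 rose and 2 fell with offsets, median 0.25). CDKN1A, the inhibitor of cyclin-dependent kinases that halts the cycle (chr6:36676460-36687337), was at 169 and 176 CPM in KO BMN libraries and at 116 and 124 CPM in KO control libraries (0.52 ± 0.08; adjusted p = 6.6e-05). MDM2, which marks p53 for destruction, was at 133 and 120 CPM in KO BMN libraries and at 89.9 and 89.2 CPM in KO control libraries (0.50 ± 0.10; adjusted p = 0.00079). The ribonucleotide reductase subunit RRM2B was at 91.6 and 88.1 CPM in KO BMN libraries against 47.9 and 50.0 CPM in KO control libraries (0.88 ± 0.14; adjusted p = 4.3e-05). No pair of groups overlapped among these 3.

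The kinase PLK2 and the death receptor FAS rose by 0.42 ± 0.05 and 0.60 ± 0.11, and the stress cytokine GDF15 was low, at 6.19 and 6.83 CPM in KO BMN libraries and 3.78 and 4.63 CPM in KO control libraries (0.63 ± 0.20; adjusted p = 0.038). BTG1, an antiproliferative factor, fell by 0.44. BAX and BBC3, which open the mitochondrial death pathway, were at 0.10 and -0.23 on the log2 scale and did not pass, nor did the repair gene DDB2 at -0.20. With offsets BAX did, at 0.25 (adjusted p = 0.0019). CDKN1A, MDM2, RRM2B, PLK2 and FAS rose with each library left out, GDF15 and TP53INP1 passed in none of those 4 fits, and AEN and ZMAT3 passed in 3 and 2 of them.

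Repair genes were read as 3 lists. Of 44 genes of homologous recombination and the Fanconi pathway, 5 rose and 1 fell, with a median of 0.08 (8 rose and 1 fell with offsets, median 0.10). FANCB, of the Fanconi core complex, was at 14.6 and 11.8 CPM in KO BMN libraries and at 4.91 and 6.94 CPM in KO control libraries (1.15 ± 0.27; adjusted p = 0.0041; 0.88 with offsets). BRCA2, a mediator of homologous recombination, was at 63.3 and 58.0 CPM in KO BMN libraries and at 39.6 and 35.8 CPM in KO control libraries (0.69 ± 0.17; adjusted p = 0.0082; 0.36 with offsets). The transcripts of FANCB and BRCA2 have a GC content of 36.4% and 36.3%, in the lowest class. The nuclease GEN1 and the helicase FANCM rose by 0.71 each. None of the 6 calls on this list held with each library left out.

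Among 30 genes of checkpoints and end joining, 6 rose and 4 fell, with a median of 0.09 (5 rose and 1 fell with offsets). PRKDC, the kinase of end joining, was at 1637 and 1620 CPM in KO BMN libraries and at 1395 and 1330 CPM in KO control libraries (0.26 ± 0.05; adjusted p = 0.00044). It was the single gene of this list to pass with each library left out. ATR, the kinase that senses stalled forks, was at 79.3 and 84.2 CPM in KO BMN libraries and at 55.9 and 59.2 CPM in KO control libraries (0.51 ± 0.12; adjusted p = 0.0047), and the end-joining ligase LIG4 rose by 0.82. ATM rose by 0.32 but did not pass with offsets. Of 33 genes of the PARP family and single-strand break repair, XRCC1 and LIG1 fell, by 0.36 and 0.27, and 0 rose (median -0.13; 0 rose and 1 fell with offsets). Neither of these falls passed with offsets, and PARP2 did.

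**Figure D3:**
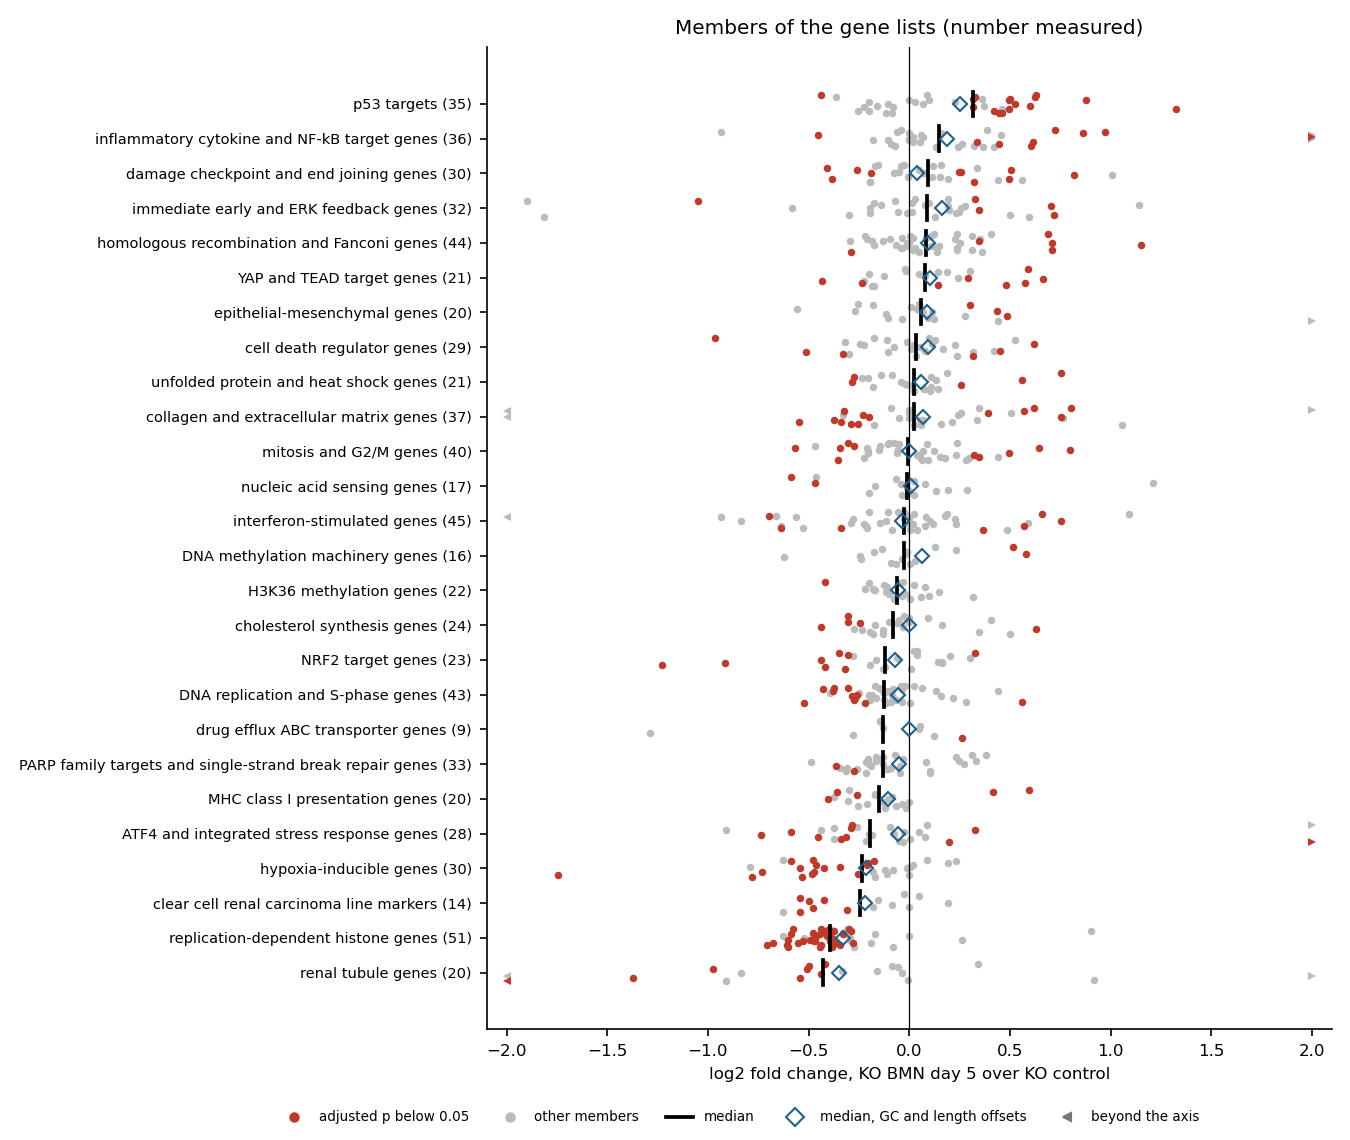
Log2 fold change of KO BMN day 5 over KO control for every measured member of 26 gene lists, with members past adjusted p of 0.05 in red, the list median as a black bar and the median with GC and length offsets as an open diamond; triangles at the edge lie beyond the axis. Histone, hypoxia and renal tubule lists lie left of 0 (medians -0.39, -0.23 and -0.43) and the p53 list right of it (0.32).

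Secreted and signalling genes rose in several lists. Of 36 inflammatory cytokine and NF-kB target genes, 8 rose and 1 fell, with a median of 0.15 (12 rose and 1 fell with offsets, median 0.19). IL6, an inflammatory cytokine, was at 22.9 and 26.5 CPM in KO BMN libraries and at 13.8 and 13.4 CPM in KO control libraries (0.86 ± 0.12; adjusted p = 5.6e-06). CXCL8, a chemokine for neutrophils, was at 126 and 116 CPM in KO BMN libraries and at 73.0 and 73.6 CPM in KO control libraries (0.72 ± 0.10; adjusted p = 4.7e-06; 0.34 with offsets). CCL2, a chemokine for monocytes, rose by 0.61 and the complement gene C3 fell by 0.45. The fall of C3 was lost in 5 of 10 alternatives, among them the offsets (-0.29). IL6, CXCL8 and CCL2 passed with each library left out.

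Tissue factor F3, which starts coagulation, was at 236 and 234 CPM in KO BMN libraries and at 147 and 149 CPM in KO control libraries (0.67 ± 0.06; adjusted p = 1.1e-09). It was 1 of 6 YAP and TEAD targets of 21 that rose, with ANKRD1 (0.59 ± 0.09) and the ecto-nucleotidase NT5E (0.57 ± 0.08), while IGFBP3, a binding protein of insulin-like growth factors, and the receptor kinase AXL fell by 0.43 and 0.23. With offsets 9 of that list rose and 1 fell, and AXL did not pass (-0.09). EREG, a ligand of the EGF receptor, was at 153 and 145 CPM in KO BMN libraries and at 90.2 and 90.3 CPM in KO control libraries (0.72 ± 0.09; adjusted p = 5.2e-07). It was 1 of 4 rises among 32 immediate early and ERK feedback genes, with DUSP5, ETV5 and PHLDA1, while the immediate early factor EGR1 was low, at 1.98 and 2.29 CPM in KO BMN libraries and 3.51 and 5.35 CPM in KO control libraries, and fell by 1.05. With offsets 9 of them rose and 1 fell.

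Extracellular matrix genes went both ways, with 5 of 37 higher and 8 lower and a median of 0.02 (12 higher and 8 lower with offsets). THBS1, a matrix glycoprotein (chr15:39581079-39599466), was at 2336 and 2385 CPM in KO BMN libraries and at 1650 and 1528 CPM in KO control libraries (0.57 ± 0.05; adjusted p = 4.9e-10). COL6A3 and FBN1, which form microfibrils, rose by 0.80 and 0.75, and COL8A1 and the crosslinking enzyme LOXL2 fell by 0.34 and 0.37. Of 20 epithelial-mesenchymal genes, CLDN1, SNAI2 and ITGB3 rose and 0 fell (5 and 0 with offsets), CLDN1 in each of the fits without a library.

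Interferon genes did not move as a group: 4 of 45 rose and 3 fell, with a median of -0.02 (7 rose and 6 fell with offsets). HERC6 and SAMD9L rose by 0.75 and 0.66 (each lost without at least 1 library), and IFITM3, a membrane protein that restricts virus entry, was at 49.9 and 52.1 CPM in KO BMN libraries and at 81.5 and 83.8 CPM in KO control libraries (-0.70 ± 0.11; adjusted p = 7.6e-05). Among 17 sensors of nucleic acids, STING1, the adaptor for DNA in the cytosol, fell by 0.47 and TLR3 by 0.59, and 0 rose (1 rose and 3 fell with offsets). The fall of TLR3 was lost in 5 of 10 alternatives. For antigen presentation 2 of 20 rose and 3 fell, with a median of -0.15 (2 rose and 6 fell with offsets). CD274, the checkpoint ligand PD-L1, was at 23.7 and 26.7 CPM in KO BMN libraries and at 16.7 and 16.7 CPM in KO control libraries (0.59 ± 0.10; adjusted p = 0.00014).

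Calls in stress and metabolic lists went both ways. Of 28 ATF4 and integrated stress response genes, 7 fell and 3 rose, with a median of -0.19 (5 and 2 with offsets, median -0.05). DDIT4, an inhibitor of mTOR signalling, was at 604 and 625 CPM in KO BMN libraries and at 995 and 1052 CPM in KO control libraries (-0.74 ± 0.07; adjusted p = 1.5e-08). Of 23 NRF2 targets 7 fell and 1 rose (7 and 2 with offsets), among them the ferritin genes FTH1 and FTL, at -0.35 ± 0.08 and -0.44 ± 0.10. None of these 8 passed with each library left out. SREBF2, the regulator of sterol synthesis, fell by 0.44 ± 0.08, 1 of 4 falls beside 1 rise among 24 cholesterol genes (2 falls and 3 rises with offsets). Of 21 unfolded protein and heat shock genes 3 rose and 2 fell (5 and 3 with offsets), with HSPH1, a cytosolic chaperone, at 293 and 292 CPM in KO BMN libraries and 205 and 192 CPM in KO control libraries.

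The remaining lists held few calls. Of 29 regulators of cell death, BIRC2, PMAIP1 and MCL1 rose and BMF, BCL2 and BCL2L11 fell (5 rose and 3 fell with offsets, where PMAIP1 did not pass). The largest of these was BMF, a pro-death member of the BCL2 family, at 12.1 and 11.5 CPM in KO BMN libraries against 24.9 and 21.3 CPM in KO control libraries (-0.97 ± 0.14; adjusted p = 1.5e-05). Of 16 genes of DNA methylation, HELLS and ZBTB33 rose and 0 fell (3 and 1 with offsets), and the maintenance enzyme DNMT1 was at 310 and 324 CPM in KO BMN libraries and 333 and 300 CPM in KO control libraries, passing with offsets alone (0.16; adjusted p = 0.030). Of 22 genes of H3K36 methylation, PHF1, a reader of the mark, fell by 0.42 and 0 rose (2 rose and 4 fell with offsets). Calls for HELLS, ZBTB33 and PHF1 were lost in 2, 4 and 4 of 10 alternatives. Among 9 drug efflux transporters ABCA1 rose by 0.26 and 0 fell (1 and 1 with offsets). None of 28 measured cancer-testis genes passed in either direction, without or with offsets.

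The 15 largest falls among genes averaging 5 CPM or more in either group ran from -3.11 to -1.45 on the log2 scale. LINC02532, a long non-coding RNA (chr6:106705334-106788148), was at 1.77 and 2.45 CPM in KO BMN libraries and at 18.4 and 18.1 CPM in KO control libraries (-3.11 ± 0.20; adjusted p = 6.7e-13). VAV3, a guanine nucleotide exchange factor (chr1:107571161-107965180), was at 2.13 and 2.50 CPM in KO BMN libraries against 16.8 and 18.1 CPM in KO control libraries (-2.91 ± 0.25; adjusted p = 3.2e-10). The cationic amino acid transporter SLC7A2 was at 5.05 and 2.87 CPM in KO BMN libraries and at 26.4 and 30.0 CPM in KO control libraries (-2.83 ± 0.20; adjusted p = 3.6e-12). For each of these 3 genes both KO BMN libraries lay far below both controls.

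SEMA5B, a semaphorin, was at 15 and 16.2 CPM in KO BMN libraries and at 60.9 and 65.7 CPM in KO control libraries (-2.02 ± 0.14). TXNIP, a glucose-responsive inhibitor of thioredoxin, was at 22 and 19.5 CPM in KO BMN libraries and at 57.7 and 66.7 CPM in KO control libraries (-1.59 ± 0.09; adjusted p = 8.5e-15). DHRS3, a retinal reductase, was at 10.5 and 11 CPM in KO BMN libraries and at 30.9 and 32.3 CPM in KO control libraries (-1.56 ± 0.10). The others were NDRG1, the myosin gene MYH13, KMO of the kynurenine pathway, the proline dehydrogenase PRODH, AMACR, ITIH5, CCDC183, SMPDL3A and DIRAS2. All 15 passed with each library left out and with offsets. Much of the exon length of AMACR (64.7%) and CCDC183 (70.2%) is shared with another gene on the same strand, so their values are uncertain.

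The 15 largest rises, from 2.81 to 1.12, had a transcript GC content of 35.3% to 42.0%, except SNORD3C at 54.9%. Of these, 4 are pseudogenes (MTND4LP30, ATP1B3P1, NAP1L1P3 and SNRPEP2) and SNORD3C is a copy of the U3 small nucleolar RNA, whose reads cannot be assigned with certainty. IFRD1, a transcriptional coregulator induced by stress (chr7:112422887-112481017), was at 17.7 and 15.2 CPM in KO BMN libraries and at 5.99 and 7.38 CPM in KO control libraries (1.30 ± 0.24; adjusted p = 0.00044; 1.14 with offsets). TMED7, a cargo receptor of the early secretory pathway, was at 89.7 and 72.6 CPM in KO BMN libraries and at 28.2 and 36.5 CPM in KO control libraries (1.33 ± 0.35; adjusted p = 0.011; 1.1 with offsets). LACC1, a purine-metabolizing enzyme, was at 8.22 and 7.25 CPM in KO BMN libraries and at 3.67 and 3.36 CPM in KO control libraries (1.14 ± 0.23; adjusted p = 0.0011). The rest were EEF1E1, PFDN4, AK6, IER3IP1, HIGD1A, SLC38A6 and FANCB. All 15 passed with offsets, but with each library left out only IFRD1, LACC1, MTND4LP30 and SNRPEP2 did.

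The same treatment gave far fewer calls in WT cells, where 33 genes were higher with BMN (0.146%) and 9 were lower (0.04%). With offsets 147 were higher and 87 lower, and with only the 4 WT libraries in the fit 0 passed by edgeR (1499 genes had an unadjusted p below 0.05 in the fit of 40 libraries, and DESeq2 called 70). The 2 WT control libraries differed more from each other than those of any other group described here, with an SD of the log2 difference of 0.313 against 0.137 between the WT BMN libraries. Of the WT calls, 19 of 33 rises (57.6%) and 9 of 9 falls were also called the same way in KO cells, where they made 1.66% and 0.601% of the calls, and 0 were opposite. The 42 calls became 15 without WT BMN replicate 1, 16 without WT BMN replicate 2 and 79 without WT control replicate 2.

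CDKN1A was at 151 and 145 CPM in WT BMN libraries and at 77.6 and 92.3 CPM in WT control libraries (0.80 ± 0.09; adjusted p = 1.9e-06). IL6, far lower in this line, was at 4.90 and 3.0 CPM in WT BMN libraries and at 1.51 and 0.880 CPM in WT control libraries (1.70 ± 0.23; adjusted p = 0.00013). NT5E, CD274, COL6A3, THBS1, F3 and PLK2 rose in WT cells as well, by 0.58, 0.78, 0.45, 0.32, 0.38 and 0.24, and NDRG1, ALDH1A1, TXNIP, DHRS3 and DDIT4 fell, by 0.40, 0.41, 0.43, 0.43 and 0.35. Of 10 alternatives, the calls in WT cells were lost in 6 for CD274 and PLK2, 5 for DDIT4, 4 for TXNIP and DHRS3, 3 for NT5E, 2 for F3 and NDRG1 and 1 for the other genes named. Without WT control replicate 2, DDIT4 was at -0.14 (adjusted p = 0.40). For CDKN1A, IL6 and NT5E the difference of the response between the lines did not pass (KO minus WT -0.28 ± 0.12, -0.83 ± 0.27 and -0.01 ± 0.12; adjusted p = 0.40, 0.22 and 1.0), though that of IL6 did without WT BMN replicate 2 (-1.16; adjusted p = 0.038).

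Tested directly, the response to BMN was more positive in KO than in WT cells for 15 genes (0.0666%) and more negative for 99 (0.439%). NDRG1 was at 755 and 768 CPM in WT BMN libraries and at 950 and 1061 CPM in WT control libraries, and its response differed by -1.34 ± 0.09 (KO minus WT; adjusted p = 1.2e-11). EGLN3, at 82.1 and 85.5 CPM in WT BMN libraries and 85.6 and 91.7 CPM in WT control libraries, differed by -0.70 ± 0.10 (adjusted p = 9.8e-05). IGFBP3 was more negative in KO cells (-0.47). EREG was more positive (0.51), but its call was lost in 9 of 14 alternatives and it was at 0.27 with offsets (adjusted p = 0.11). Of the 30 hypoxia genes, 6 had a more negative response in KO cells and 0 a more positive one, among them VEGFA (-0.49), ADM (-0.56) and EPAS1 (-0.44), whose calls were lost in 5, 7 and 6 of 14 alternatives. Of the 51 histone genes, 7 were more negative and 0 more positive, among them H1-2 (-0.45 ± 0.09; adjusted p = 0.0048) and H2BC7 (-0.64 ± 0.12; adjusted p = 0.0054). None of the 35 p53 targets passed in this test without offsets. With offsets 8 hypoxia genes and 9 histone genes were more negative and 0 of either list more positive, and of the p53 targets RRM2B (0.40) and PLK2 (0.21) were more positive and 0 more negative.

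The largest negative differences were in LINC02532 (-2.56), VAV3 (-2.51), KMO (-2.03), MMP7 (-1.90) and SEMA5B (-1.74). LINC02532 was at 28.2 and 31.2 CPM in WT BMN libraries and at 43.6 and 43.3 CPM in WT control libraries, and VAV3 at 19.4 and 18.7 CPM against 25.7 and 24.5 CPM. The largest positive ones were in CCT6P1 (1.14), a pseudogene, SPOCD1 (1.01), ADAMTS5 (0.80), PGM2L1 (0.65) and ZNF195 (0.64), whose calls were lost in 3, 3, 7, 6 and 8 of 14 alternatives. SPOCD1, which takes part in silencing of transposons in the germ line of mice, was at 19.4 and 19.2 CPM in KO BMN libraries and 10.04 and 9.64 CPM in KO control libraries, and at 2.32 and 2.37 CPM in WT BMN libraries and 2.37 and 2.43 CPM in WT control libraries. The 114 calls became 986 without WT control replicate 2, against 45 to 85 without any 1 of the other 7 libraries (53 without WT control replicate 1, 45 and 63 without KO BMN replicate 1 and 2, 71 and 50 without WT BMN replicate 1 and 2). With offsets 67 genes were more positive and 186 more negative; without them this difference had a correlation of -0.60 with GC content.

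A comparison of KO cells at a matched day set BMN with DAC against DAC alone, and shares no library with the one above. There 2369 genes were higher (10.5%) and 2661 lower (11.8%). Of the genes that rose in KO cells on BMN alone, 392 of 1142 (34.3%) rose here and 23 (2.01%) fell, and of those that fell, 640 of 1497 (42.8%) fell here and 88 (5.88%) rose. The shared genes made 16.5% of the rises and 24.1% of the falls with DAC present. The 5030 calls became 3217 and 3235 without DAC and BMN replicate 1 and 2 and 3002 without DAC replicate 1. Histone genes fell in 50 of 51 cases (median -1.50), and 25 of 35 p53 targets rose and 0 fell (median 0.68). Of 30 hypoxia genes 2 rose and 11 fell (median -0.13). Repair and renal lists differed from the comparison without DAC. Of 44 recombination and Fanconi genes 1 rose and 17 fell (median -0.19). Of 30 checkpoint and end joining genes 2 rose and 10 fell (median -0.12). Renal tubule genes went both ways, with 4 of 20 higher and 4 lower (median -0.02). With offsets 3375 of the 22527 genes tested were higher and 2958 lower. Among the lists, 50 histone genes then fell (median -1.33), and 32 p53 targets rose and 1 fell (median 0.70). Recombination genes had 1 rise and 23 falls, checkpoint genes 3 and 14, renal tubule genes 4 and 4 and hypoxia genes 4 and 11.

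Some genes differed more with BMN in the comparison with DAC present. That comparison is matched by day and the one without DAC is not. The presence of DAC and the match of days therefore cannot be told apart, here or for the genes that turned below. Tested as a difference of the 2 responses, the effect of BMN was more positive with DAC for 952 genes (4.23%) and more negative for 830 (3.68%). The 1782 calls became 1129 without KO BMN replicate 1, 1172 without DAC replicate 2 and 1072 without DAC and BMN replicate 2. CDKN1A was at 428 and 462 CPM in libraries with DAC and BMN and at 138 and 126 CPM with DAC alone, and its response was larger by 1.23 ± 0.12 (adjusted p = 4.7e-09). GDF15 was at 176 and 173 CPM with DAC and BMN and at 14.4 and 12.5 CPM with DAC alone (difference 3.06 ± 0.25; adjusted p = 2.0e-10). H1-2 was at 151 and 156 CPM with DAC and BMN and at 398 and 402 CPM with DAC alone (difference -0.79 ± 0.09; adjusted p = 8.4e-08).

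Other genes turned. TXNIP was at 80.1 and 78.8 CPM with DAC and BMN and at 32.2 and 29.4 CPM with DAC alone, a rise of 1.37 ± 0.08 where BMN without DAC had come with a fall (difference 2.95 ± 0.12; adjusted p = 1.8e-18). CDH6 was at 150 and 146 CPM with DAC and BMN and at 52.8 and 60.3 CPM with DAC alone, a rise of 1.38 ± 0.08 (difference 1.88 ± 0.11). NDRG1 fell with DAC present too, but by less, at 391 and 412 CPM against 680 and 625 CPM (-0.70 ± 0.06; difference 1.04 ± 0.09; adjusted p = 5.2e-10). For EGLN3 the fall was 0.55 with DAC and the difference did not pass (0.23 ± 0.10; adjusted p = 0.16).

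**Figure D4:**
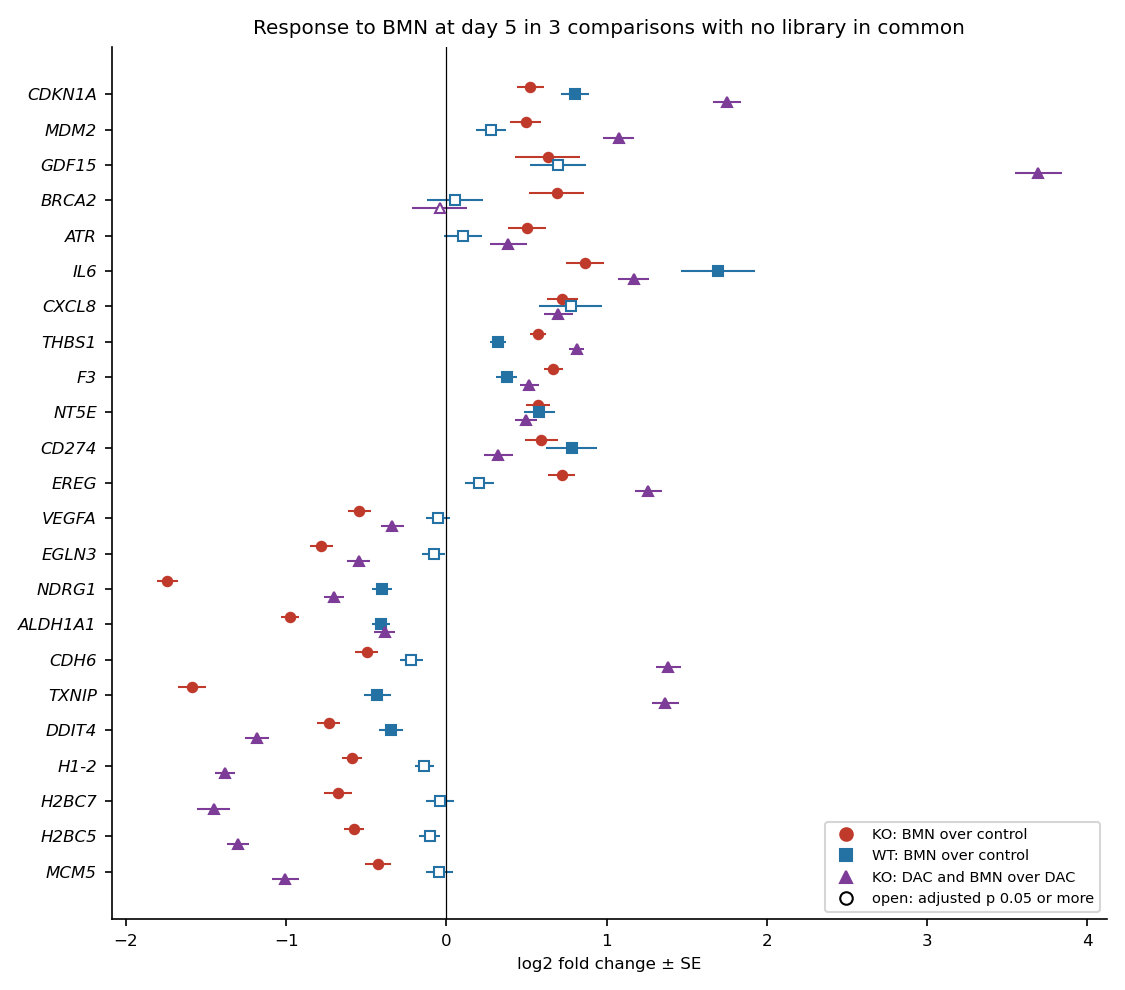
Log2 fold change with its SE for 23 genes in 3 comparisons: KO BMN over KO control (circles), WT BMN over WT control (squares) and KO DAC and BMN over KO DAC (triangles), filled where adjusted p is below 0.05. Histone and hypoxia genes lie left of 0 in both KO comparisons and nearer 0 in WT, and TXNIP and CDH6 lie on opposite sides in the 2 KO comparisons.

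KO cells on BMN were also sampled at day 16 and day 26, and these comparisons use the same day 5 libraries as above, so values are set side by side only. Relative to day 5, 604 genes were higher at day 16 (2.68%) and 1116 lower (4.95%), and at day 26, 2017 were higher (8.95%) and 2113 lower (9.38%). The counts became 601 and 461 for day 16 without day 5 replicate 1 and 2 and 585 and 406 without day 16 replicate 1 and 2. For day 26 they became 2523 and 2381 without day 5 replicate 1 and 2 and 2243 and 2722 without day 26 replicate 1 and 2. With offsets 853 genes were higher and 954 lower at day 16. NDRG1, at 1162 and 1137 CPM in control and 344 and 343 CPM at day 5, stood at 546 and 518 CPM at day 16 and at 243 and 245 CPM at day 26. EGLN3 stood at 111 and 109 CPM at day 16 and at 48.0 and 43.8 CPM at day 26, below its day 5 values of 86.7 and 86.6 CPM. At both later days NDRG1 and EGLN3 were below both control libraries.

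CDKN1A was at 61.4 and 60.9 CPM at day 16 and at 78.4 and 73.9 CPM at day 26, below day 5 (-1.50 ± 0.09 and -1.18 ± 0.09) and below the control libraries. H1-2 was at 590 and 590 CPM at day 16 and at 549 and 597 CPM at day 26, above day 5 (0.30 ± 0.06 and 0.26 ± 0.06) and below control. ALDH1A1 stood at 175 and 179 CPM and then at 236 and 245 CPM, and THBS1 at 1472 and 1450 CPM and then at 3122 and 3181 CPM. LINC02532 and VAV3 stayed at 2.77 to 4.5 CPM at both days, above their day 5 libraries and far below control. Against day 5, LINC02532 at day 26 and VAV3 at day 16 did not pass. LINC02532 at day 16 and VAV3 at day 26 did, but each call was lost in 4 of 10 alternatives.

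**Figure D5:**
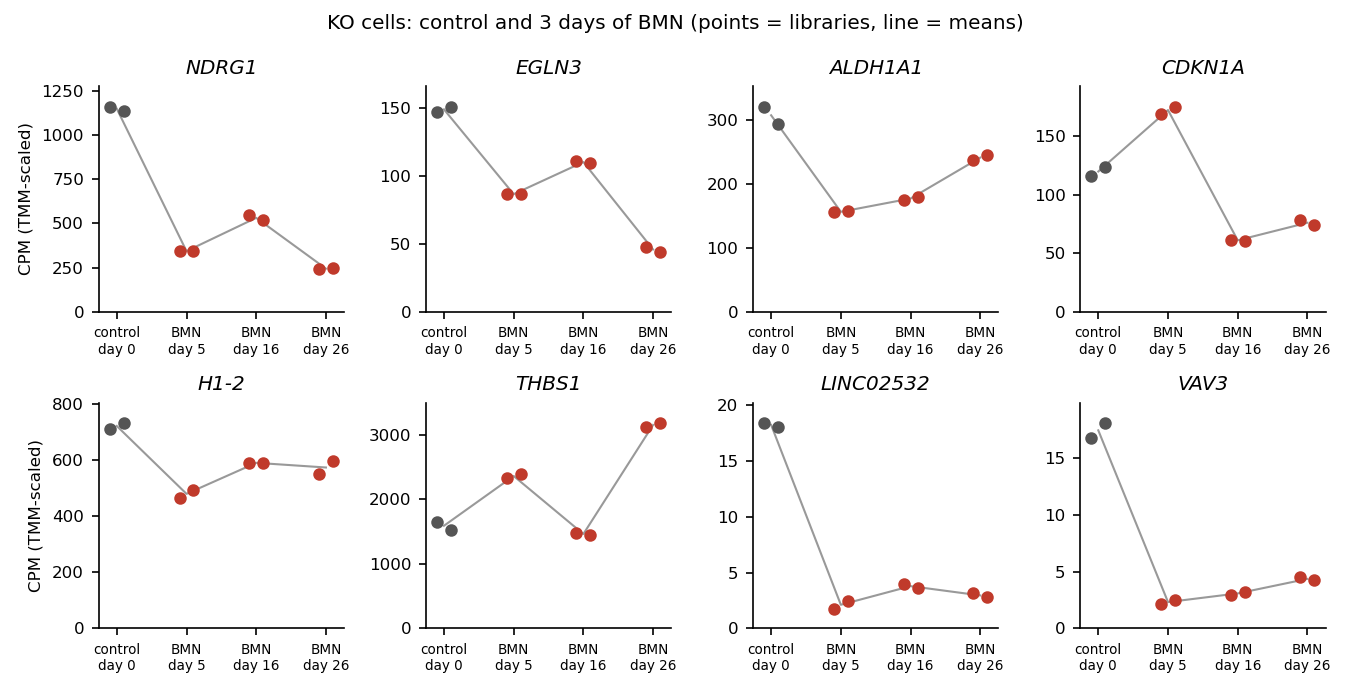
CPM (linear axes from 0) of 8 genes in KO cells, with a point per library and a line through the means, for control at day 0 and BMN at days 5, 16 and 26, spaced evenly. NDRG1, EGLN3, ALDH1A1, LINC02532 and VAV3 remain below control at every BMN day, and CDKN1A is above control at day 5 only.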

How the data were processed

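RNA-seq of 786-0 cells gave 40 libraries in 20 groups of 2, grouped by their titles. The authors deposited raw counts per gene. Per the file headers, reads were counted with featureCounts 1.5.0-p1 over exons by gene (strand setting 1, mapping quality of at least 20, Ensembl release 104 of GRCh38), and the submitters' processing notes name FastQC, Trimmomatic and Partek. Reads mapping to several copies of a gene are lost at that quality limit.

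From these counts, 22527 of 60664 genes passed edgeR's filterByExpr (count minimum 10, total 15). TMM scaling and 1 quasi-likelihood fit over all 40 libraries (20 residual degrees of freedom; edgeR 4.0.16, R 4.3.3) gave each comparison, with Benjamini-Hochberg adjustment at 0.05. The self-test ran on simulated counts. Alternatives were RLE scaling, no filter, DESeq2 1.42.0, only the libraries compared, a replicate block and each library left out; offsets for GC content and length were added after seeing the data. Transcript GC content was available for 98.5% of the genes tested. Named genes were SETD2, PARP1 and PARP2, the 15 largest rises and falls (groups not overlapping, a mean of 5 CPM or more in either group, 3 or more counts in each library), up to 4 passing members of each list by smallest p, and the 5 largest differences between lines in each direction; other list members are given where their list is described. Members and lists were chosen with earlier results of these data known. Replicate numbers did not pair the libraries of the main comparison (r = -0.045 between same-numbered KO BMN and KO control libraries). Values of some list members are not reported here.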

Additional observations from a re-analysis of the deposited data

Results flagged for a closer look

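The response to BMN differed between the KO and WT lines by an interaction test for 114 genes. More negative in KO cells (KO minus WT, log2) were LINC02532 (-2.56), VAV3 (-2.51), KMO (-2.03), MMP7 (-1.90), SEMA5B (-1.74), NDRG1 (-1.34), TXNIP (-1.16), EGLN3 (-0.70), H2BC7 (-0.64), ALDH1A1 (-0.57), ADM (-0.56), VEGFA (-0.49), IGFBP3 (-0.47), H1-2 (-0.45) and EPAS1 (-0.44). More positive were CCT6P1 (1.14), SPOCD1 (1.01), ADAMTS5 (0.80), PGM2L1 (0.65), ZNF195 (0.64) and EREG (0.51). Of 14 alternatives, the call was lost in 9 for EREG, 8 for ZNF195, 7 for ADAMTS5 and ADM, 6 for PGM2L1 and EPAS1, 5 for VEGFA and MMP7, 3 for CCT6P1, SPOCD1, H1-2 and H2BC7, 1 for IGFBP3 and ALDH1A1, and 0 for the others. With offsets EREG was at 0.27 (adjusted p = 0.11) and ZNF195 at 0.38 (adjusted p = 0.19). The difference between the 2 WT control libraries (SD 0.313) stands beside all of these, and its part in them was not tested.

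In KO cells the effect of BMN at day 5 differed with and without DAC by the same kind of test for 1782 genes. More positive with DAC were GDF15 (3.06), TXNIP (2.95), CDH6 (1.88), CDKN1A (1.23), NDRG1 (1.04) and ALDH1A1 (0.59), and H1-2 was more negative (-0.79). The comparison with DAC is matched by day and the one without DAC is not, so the presence of DAC and the match of days cannot be told apart in this difference.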

How the results depend on the processing

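With 1 library left out, counts of calls were 779 to 1606 for KO BMN against KO control (2639 with all), 15 to 79 for WT (42), 45 to 986 for KO minus WT (114), 3002 to 4022 for DAC and BMN against DAC (5030), 1072 to 1515 for the effect of DAC on the response (1782), 406 to 601 for day 16 (1720) and 2243 to 2722 for day 26 (4130). In those fits a group left with 1 library is assumed to vary like the others. WT calls were 64 with no filter, 70 with DESeq2, 0 with only the libraries compared and 234 with offsets. KO minus WT calls were 353, 178, 24 and 253 in the same order. Offsets gave 3439 calls for the effect of DAC, and only the libraries compared gave 3824 at day 16. The cause was not tested.

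With the replicate number as a block, KO BMN against KO control had 2708 calls, and no count moved by over 1.5 times. Same-numbered KO BMN and KO control libraries did not deviate together (r = -0.045), so the numbers give no pairing in that comparison. Between other groups r ran from -0.47 (WT control and KO DAC at day 5) to 0.29 (WT control and KO BMN at day 26). It was 0.24 between WT control and KO control. Among 250 results for single genes, 0 reversed under any alternative run. Leaving out 1 library kept the call in 837 of 1132 values and lost it in 292, and offsets lost it in 20. With 2 libraries a group, small changes and genes of few counts are the least certain.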
